A study of Homo sapiens with 3 samples.

Results

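The olfactory receptor genes of human chromosomes 1 and 11 lie in long arrays, and 5 such arrays were examined for binding of Idax. Idax is the product of CXXC4, and through its CXXC finger it contacts DNA at CpG pairs that carry no methyl group. The members were the ChIP-seq peaks that shared at least 1 bp with any of the 5 clusters, which were defined by genome position, with earlier results of these data known. Of 17089 peaks of wild-type Idax, 1 lay in a cluster, and of 38 peaks of its DNA-binding mutant, 0 did. The clusters covered 5.18 Mb, which was 0.173% of the sequence between the first and last wild-type peak of each chromosome, and held 0.00585% of the wild-type peaks.

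The peaks came from stable lines of HEK293T, a line derived from human embryonic kidney and transformed further with SV40 large T antigen. A line with wild-type Myc-Idax and a line with the DNA-binding mutant Myc-IdaxDBM were each compared with a line that carried the empty vector, and chromatin of all 3 was pulled down with an anti-c-Myc agarose gel. The series was designed with 2 replicates of each line, and 1 peak list per tagged line was analysed, so no value has a replicate error and no test between the lines was possible. Read depth is unknown. The labels do not say whether a line was 1 clone, and the wild-type and mutant proteins were in separate lines.

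Olfactory receptors are G protein-coupled receptors that detect odorants. They form the largest gene family of mammals, grown by repeated local duplication, and many human copies are pseudogenes. An olfactory sensory neuron expresses a single receptor allele and keeps the others silent, and most other tissues, kidney cells among them, express few or none. Their promoters are known to be poor in CpG and rich in A and T.

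On hg19, the first cluster lay on chromosome 11 from 4380000 to 5230000 (0.85 Mb) and the second from 5340000 to 6230000 (0.89 Mb), on either side of the beta-globin genes. The third, the longest, lay on the same chromosome from 55000000 to 56800000 (1.8 Mb). The fourth lay near the end of chromosome 1 from 247600000 to 248850000 (1.25 Mb), and the fifth on chromosome 1 from 158360000 to 158750000 (0.39 Mb). No hg19 annotation was used here, so the genes are given by their order in RefSeq on GRCh38.p14, and no peak was assigned to a gene. The 5 groups in that order held 157 protein-coding olfactory receptor genes (40.1% of the 392 in the table), 120 olfactory receptor pseudogenes and 15 other protein-coding genes. Whether every gene of a group lies within its hg19 window was not checked.

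The arrays differed in the families that made up most of their receptor genes, with OR51 and OR52 shared by the first 2 groups. The group before the globin genes, OR52B4 to OR51V1, held 15 genes of family OR51 and 11 of family OR52, and between them lay TRIM21, TRIM68 and MMP26. TRIM21 and TRIM68 encode tripartite motif ubiquitin ligases and MMP26 a matrix metalloproteinase. The group after the globin genes, OR51B4 to OR52W1, held 14 OR52, 8 OR51 and 7 OR56 genes. Among its 7 other genes were TRIM5 and TRIM22, known as antiviral restriction factors. The third group, TRIM48 to OR5AK2, held 46 receptor genes, led by 24 of OR5, 11 of OR8 and 8 of OR4, with 55 pseudogenes. The fourth, OR2B11 to OR14I1, held 43, of which 33 were OR2 and 6 were OR14, with GCSAML and TRIM58 between them. The fifth, OR10T2 to OR6N2, held 7 OR6 and 6 OR10 genes.

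Because the CXXC finger reads CpG, promoters of these groups are shown with every CG pair in capitals. Each is the 250 bases before the gene start, written 5′ to 3′ on the gene's own strand, from RefSeq on GRCh38.p14. These positions cannot be compared with the hg19 positions of the peaks. The first 6 are olfactory receptors, for each chromosome the promoters with the lowest, the median and the highest number of CG pairs. They are OR10R2 at chr1:158471970-158472219 (plus strand), OR10K1 at chr1:158461584-158461833 (plus strand), OR2L13 at chr1:247936927-247937176 (plus strand), OR4C15 at chr11:55554219-55554468 (plus strand), OR4C11 at chr11:55607646-55607895 (minus strand) and OR52N2 at chr11:5808674-5808923 (plus strand). MMP26 at chr11:4704534-4704783 (plus strand) and GCSAML at chr1:247518202-247518451 (plus strand) had the lowest and the highest number among the other genes of the groups. TRIM68 at chr11:4608232-4608481 (minus strand) was added after the position of the peak was known, since its group is the array with the peak and no promoter of that group had more CG pairs. TRIM58 of the OR2/OR14 group, whose window held no peak, had the same 12 pairs and is not shown.
OR10R2: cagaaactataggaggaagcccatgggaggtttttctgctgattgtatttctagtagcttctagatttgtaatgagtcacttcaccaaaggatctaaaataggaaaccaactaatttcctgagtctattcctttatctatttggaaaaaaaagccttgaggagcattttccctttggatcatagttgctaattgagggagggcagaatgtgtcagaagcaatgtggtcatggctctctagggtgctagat
OR10K1: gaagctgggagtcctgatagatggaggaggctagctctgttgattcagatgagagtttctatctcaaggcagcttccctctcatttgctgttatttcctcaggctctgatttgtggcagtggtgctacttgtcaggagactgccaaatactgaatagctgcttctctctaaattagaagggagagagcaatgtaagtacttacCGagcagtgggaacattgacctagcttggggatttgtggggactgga
OR2L13: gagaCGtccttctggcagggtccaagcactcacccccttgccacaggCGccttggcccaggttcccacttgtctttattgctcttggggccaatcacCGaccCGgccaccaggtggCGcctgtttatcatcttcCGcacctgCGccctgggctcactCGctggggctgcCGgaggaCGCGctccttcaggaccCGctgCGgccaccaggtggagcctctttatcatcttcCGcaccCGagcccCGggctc
OR4C15: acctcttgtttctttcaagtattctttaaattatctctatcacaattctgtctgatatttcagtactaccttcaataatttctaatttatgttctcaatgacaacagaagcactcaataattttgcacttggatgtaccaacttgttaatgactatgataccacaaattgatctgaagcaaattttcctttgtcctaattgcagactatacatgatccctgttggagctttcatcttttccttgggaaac
OR4C11: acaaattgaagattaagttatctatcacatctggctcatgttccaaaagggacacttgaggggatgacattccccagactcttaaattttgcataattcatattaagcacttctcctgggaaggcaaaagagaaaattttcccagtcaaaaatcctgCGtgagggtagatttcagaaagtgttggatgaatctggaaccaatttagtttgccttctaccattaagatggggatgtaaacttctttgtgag
OR52N2: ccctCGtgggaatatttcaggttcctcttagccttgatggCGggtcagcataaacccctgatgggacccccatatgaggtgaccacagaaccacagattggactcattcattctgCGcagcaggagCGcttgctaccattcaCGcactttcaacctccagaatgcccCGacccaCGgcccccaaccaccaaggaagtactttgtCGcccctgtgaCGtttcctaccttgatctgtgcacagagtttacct
MMP26: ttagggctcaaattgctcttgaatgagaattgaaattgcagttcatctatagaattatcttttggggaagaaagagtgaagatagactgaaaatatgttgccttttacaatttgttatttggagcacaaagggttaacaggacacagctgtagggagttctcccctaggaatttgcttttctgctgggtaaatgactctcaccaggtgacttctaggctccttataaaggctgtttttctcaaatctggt
GCSAML: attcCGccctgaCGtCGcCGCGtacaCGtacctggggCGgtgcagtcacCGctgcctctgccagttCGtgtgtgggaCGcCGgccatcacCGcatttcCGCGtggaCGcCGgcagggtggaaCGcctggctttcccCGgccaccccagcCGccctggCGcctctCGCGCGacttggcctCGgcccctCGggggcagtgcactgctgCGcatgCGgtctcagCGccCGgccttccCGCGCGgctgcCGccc
TRIM68: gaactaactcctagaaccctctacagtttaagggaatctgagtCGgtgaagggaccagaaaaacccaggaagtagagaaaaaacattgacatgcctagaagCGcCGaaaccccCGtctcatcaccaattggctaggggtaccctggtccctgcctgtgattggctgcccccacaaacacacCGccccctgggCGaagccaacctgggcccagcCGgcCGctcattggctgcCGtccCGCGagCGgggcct

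Of the 157 receptor genes, 130 had an entry in the promoter table, with 135 promoters, since some genes have several starts. The motif searched was CG, which reads the same on both strands, so each pair was counted once. The receptor promoters held a median of 1 CG pair (quartiles 0 and 2), against 16 (quartiles 5 and 25) over all 22199 protein-coding promoters of the table. None was found in 40 receptor promoters (29.6%), OR10R2 and OR4C15 among them, against 3.18% of all promoters, so that the motif was present in 70.4% and 96.8%. At least 10 pairs were present in 1 receptor promoter (0.741%), against 65.5% of all. That promoter was of OR2L13, with 16 pairs and a GC content of 65.6%, while another start of OR2L13 had 1 pair and 41.6%. OR52N2 followed with 9 pairs, then OR51S1 and OR14L1 with 6 each. The median GC content was 36% in the receptor promoters and 62% over all, and the number of CG pairs relative to that given by the C and G content was 0.136 and 0.711. These are properties of the reference sequence. DNA methylation and expression of these genes were not measured in the data analysed here.

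The groups resembled each other in this respect, with a median of 1 CG pair in each of the 5. The share of promoters without a pair ran from 10.8% of 37 in the OR2/OR14 group to 45.5% of 22 in the OR51/OR52 group before the globin genes. The OR4/OR5/OR8 group had the lowest median GC content, 31.2%, and the OR51/OR52/OR56 group the highest, 40.8%. The other genes between the receptors had a wider range. Over 15 promoters of 12 such genes the median was 5 pairs (0 to 33), and 4 promoters held 10 or more: 1 of TRIM68 (12 pairs), 1 of TRIM58 (12 pairs) and 2 of GCSAML (33 and 10 pairs). TRIM21 and TRIM5 had 5 each, TRIM48 and TRIM51 had 1 each, and MMP26 had 0.

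**Figure D1:**
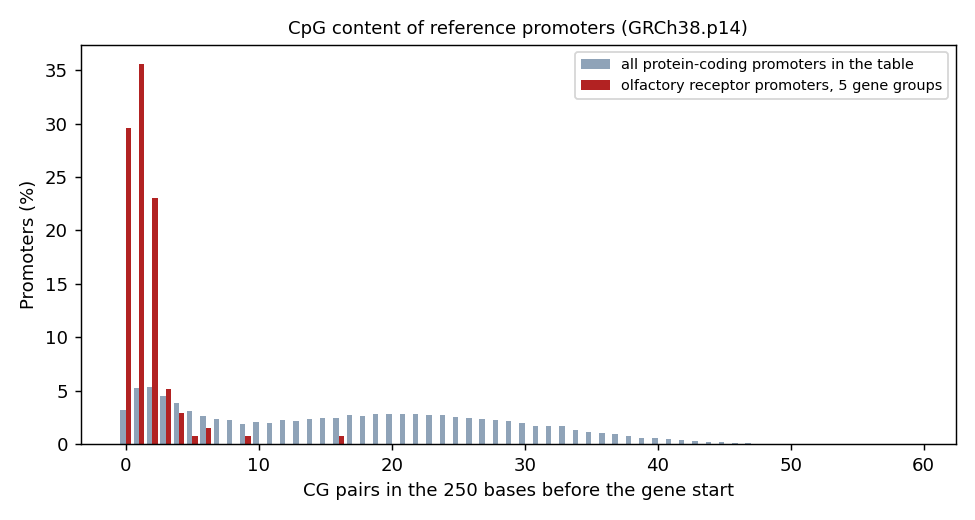
Share of promoters (%, vertical axis) by the number of CG pairs in the 250 bases before the gene start (horizontal axis), for the 135 olfactory receptor promoters of the 5 groups (red) and all 22199 protein-coding promoters of the table (grey). The receptor promoters gather at 0 to 2 pairs (88.1%), where 13.9% of all promoters lie.

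The clusters were nearly free of wild-type peaks. At 1 peak in 5.18 Mb they had 0.193 peaks per Mb (exact Poisson 95% interval 0.00489 to 1.08), whereas the whole list had 5.7 per Mb. At that density 29.5 peaks would lie in sequence of the same length. Flanks of the clusters' own length on each side, without the parts taken by another cluster or beyond the last peak of the chromosome, covered 7.831 Mb and held 55 peaks, or 7.02 per Mb (5.29 to 9.14). The density in the flanks was thus 36.4 times that in the clusters (exact 95% interval 6.26 to 1460, from the split of 56 peaks). Without the OR2/OR14 cluster and its flanks it was 21.4 times, and without the OR51/OR52 cluster, which holds the single peak, the clusters had 0 peaks and no ratio could be computed. These intervals cover counting error only and treat peaks as independent, and no test was made.

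**Figure D2:**
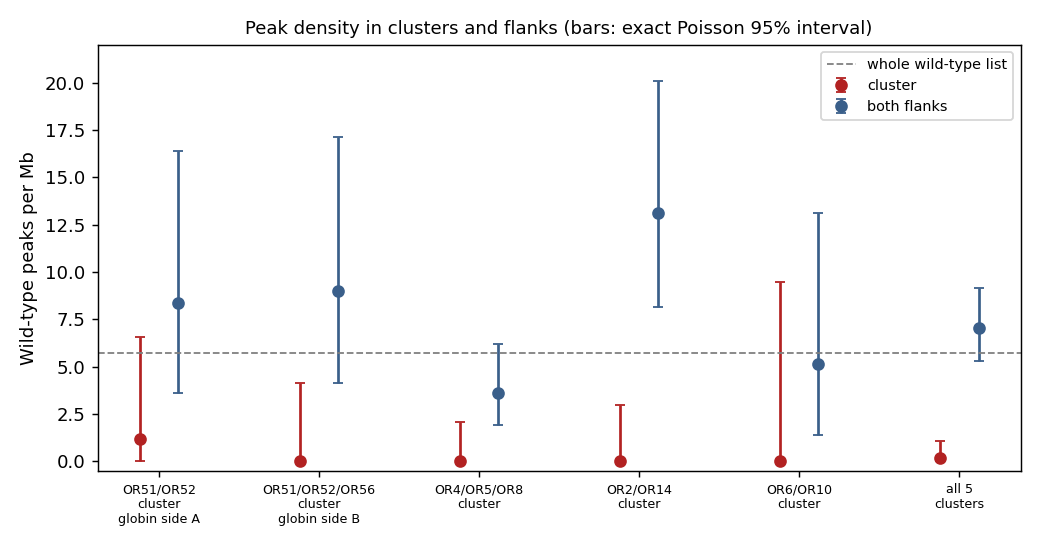
Wild-type peaks per Mb (vertical axis) in each cluster (red) and in its flanks together (blue), with exact Poisson 95% intervals as bars and the density of the whole list, 5.7 per Mb, as a dashed line. The clusters lie at 0 to 1.18 per Mb and their flanks at 3.61 to 13.1 per Mb. The intervals of cluster and flanks overlap in all but the OR2/OR14 cluster and the sum of all 5. For the OR51/OR52/OR56 cluster the overlap is narrow, from 4.12 to 4.14 per Mb. The flanks of the OR4/OR5/OR8 cluster (1.92 to 6.18) include a left flank without peaks on the side of the centromere. Its right flank alone has 3.85 to 12.4, above the cluster's 0 to 2.05.

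The single peak in a cluster lay on chromosome 11 at 4628871 to 4629866, inside the array before the globin genes. It began 249 kb after the start of that cluster and ended 600 kb before its end. It was 996 bp wide, close to the median width of the list (1116 bp), and 39.6% of the list was narrower. Its score, the authors' deposited value for a peak, was 115.17 against a list median of 223.4, which placed it at rank 12529 of 17089. Among the 55 flank peaks, which scored from 50.24 to 1562.33 (median 174.4), 15 scored lower. The peak was thus an ordinary one in width and below the median in score. By gene order its array holds TRIM21, TRIM68 and MMP26 beside the receptors. Which gene lies nearest was not determined, for want of an hg19 annotation.

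The other 4 clusters held 0 peaks each. For the shortest, the OR6/OR10 cluster, a count of 0 allows up to 7.69 peaks per Mb (3 counts in its length), which is above the density of the whole list, so at this length its lack of peaks could not be told from the density of the list. For the OR51/OR52/OR56 cluster the limit was 3.37, for the OR2/OR14 cluster 2.4 and for the OR4/OR5/OR8 cluster 1.67 per Mb, all below the 5.7 per Mb of the list. The exact Poisson 95% intervals used for the densities reach higher, to 4.14, 2.95 and 2.05 per Mb in that order, also below 5.7. For the OR6/OR10 cluster the interval reaches 9.46. By gene order the OR2/OR14 group contains OR2L13, with 16 CG pairs at 1 of its starts and 1 at another, and GCSAML, with 33 at 1 of its starts. It also contains TRIM58, with 12 pairs, as many as TRIM68 in the array with the peak. The OR2/OR14 window was free of peaks. Among the promoters of the 5 groups in the table, those with 16 and 33 pairs were the ones that reached the median of 16 pairs over all protein-coding promoters. Whether these starts were methylated in HEK293T was not measured.

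Peak-free sequence is common in this genome, and each cluster was read against windows of its own length laid end to end over all chromosomes. Windows of 0.39 Mb without a peak made up 40.3% of 7658, so the OR6/OR10 cluster was like many others. Windows of 0.85 Mb with at most 1 peak, as in the OR51/OR52 cluster, made up 36.8% of 3496. Windows without a peak made up 24.8% of 3340 at 0.89 Mb, the length of the OR51/OR52/OR56 cluster. They made up 18.4% of 2369 at 1.25 Mb (OR2/OR14) and 13.2% of 1634 at 1.8 Mb (OR4/OR5/OR8). By these shares no single cluster stood out from windows of its length. The shares include unassembled sequence, so they cannot show how usual a cluster is among assembled sequence, and they were added after the counts were known. Beside both its flanks together the OR2/OR14 cluster did stand apart, with an interval of 0 to 2.95 per Mb against 8.12 to 20.1. Beside the right flank alone, so did the OR4/OR5/OR8 cluster (0 to 2.05 against 3.85 to 12.4). The same held for the OR51/OR52/OR56 cluster (0 to 4.14 against 4.62 to 19.2). The left flanks of both held 0 peaks, in 1.8 and 0.11 Mb. The intervals of the OR51/OR52 and OR6/OR10 clusters overlapped those of either side. Single sides were compared after the counts were known.

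In fixed windows of 100 kb, 1 of the 49 that lay wholly in a cluster held a wild-type peak (2.04%, exact 95% interval 0.0517 to 10.9). The share was 31.9% over all 29935 windows and 38.9% of the 72 windows in the flanks (27.6 to 51.1). The 48 windows without a peak included all 18 of the OR4/OR5/OR8 cluster, all 12 of the OR2/OR14 cluster, all 8 of the OR51/OR52/OR56 cluster and all 3 of the OR6/OR10 cluster. Neighbouring windows are not independent, since a cluster is a single place in the genome.

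The stretches without peaks around the OR4/OR5/OR8, OR2/OR14 and OR6/OR10 clusters reached about 104 kb or more past each edge. The stretch through the OR51/OR52/OR56 cluster ended 25.41 kb after it. The OR4/OR5/OR8 cluster lay in a stretch of 9.09 Mb, from 48003328 to 57092257 on chromosome 11, the sixth longest (rank 6) of the 17065 stretches between neighbouring wild-type peaks. This stretch also holds the centromere of chromosome 11, where sequence is unassembled. The cluster itself made up 1800 kb of it, and the next peak after the cluster was 292 kb away.

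From the end of the single cluster peak, a stretch of 1.63 Mb without a peak (4629867 to 6255408, rank 270) ran through the rest of the OR51/OR52 cluster, the 110 kb between the clusters with the globin genes, and the whole OR51/OR52/OR56 cluster. The OR2/OR14 cluster lay in a stretch of 1.62 Mb (rank 272) and the OR6/OR10 cluster in one of 1.67 Mb (rank 257). The part of the OR51/OR52 cluster before its peak belonged to a shorter stretch of 0.42 Mb (rank 1424). The median stretch of the list was 52.6 kb (quartiles 15.1 and 145 kb). Stretches of at least 1.62 Mb were 1.59% of all stretches but made up 29.2% of the span, so such stretches take up much of the genome.

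**Figure D3:**
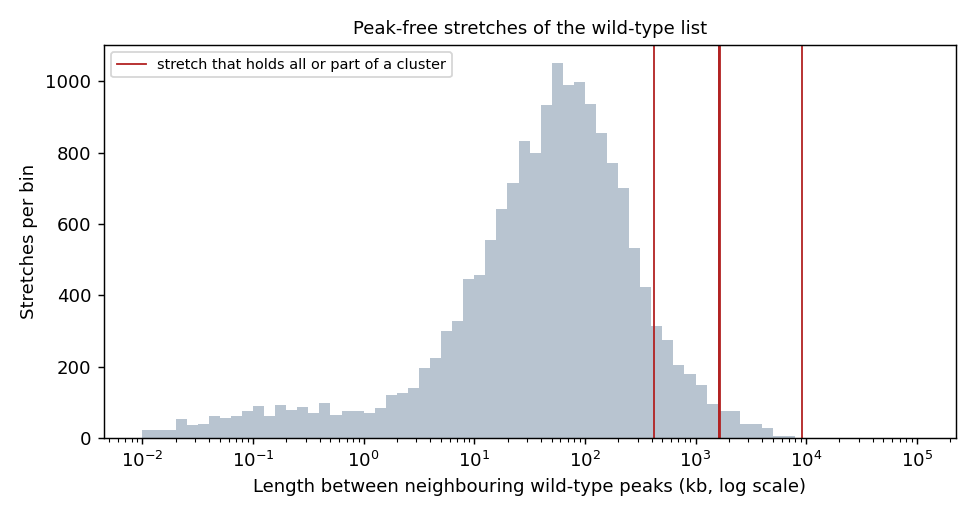
Number of stretches between neighbouring wild-type peaks (vertical axis) by their length in kb (log scale, horizontal axis), with red lines at the 5 stretches that hold all or part of a cluster. The red lines lie at 0.42 Mb, at 1.62 to 1.67 Mb (3 lines close together) and at 9.09 Mb, above the median stretch of 52.6 kb. A stretch that holds a whole cluster must lie above it by its length alone. Stretches of at least 0.42 Mb made up 58.7% of the span.

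The flanks were uneven. The OR51/OR52 cluster had 8 peaks in its left flank, with scores up to 1021.46, and the OR51/OR52/OR56 cluster had 9 in its right flank, with scores from 170.34 to 744.25. The 110 kb with the globin genes between these clusters held 0 peaks, but so short a piece would allow up to 27.3 per Mb (3 counts in its length). The OR2/OR14 cluster had 14 peaks on its left and 7 in the 350.8 kb between it and the last peak of the chromosome, or 13.1 per Mb in both together (8.12 to 20.1). This was the densest pair of flanks, beside a cluster with no peak in 1.25 Mb. The right flank was cut at the end of its last peak, which raises its density. The left flank alone had 11.2 per Mb (6.12 to 18.8).

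The other clusters had a flank without peaks. The OR4/OR5/OR8 cluster had 13 peaks in its right flank, the strongest of all flank peaks among them (57434256 to 57436212, score 1562.33, rank 68), and 0 in its left flank on the side of the centromere. Of those 13 peaks, 12 lay before a peak-free stretch of 836 kb and 1 after it. By gene order, 13 more olfactory receptor genes, OR9Q1 to OR5B21, lie between CTNND1 and LPXN in this part of the chromosome. Whether they fall into that stretch was not checked on hg19. The OR6/OR10 cluster had 4 peaks in its left flank, scoring 162.22 at most, and 0 in its right flank, and the nearest peak on that side was 1074 kb from the cluster.

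**Figure D4:**
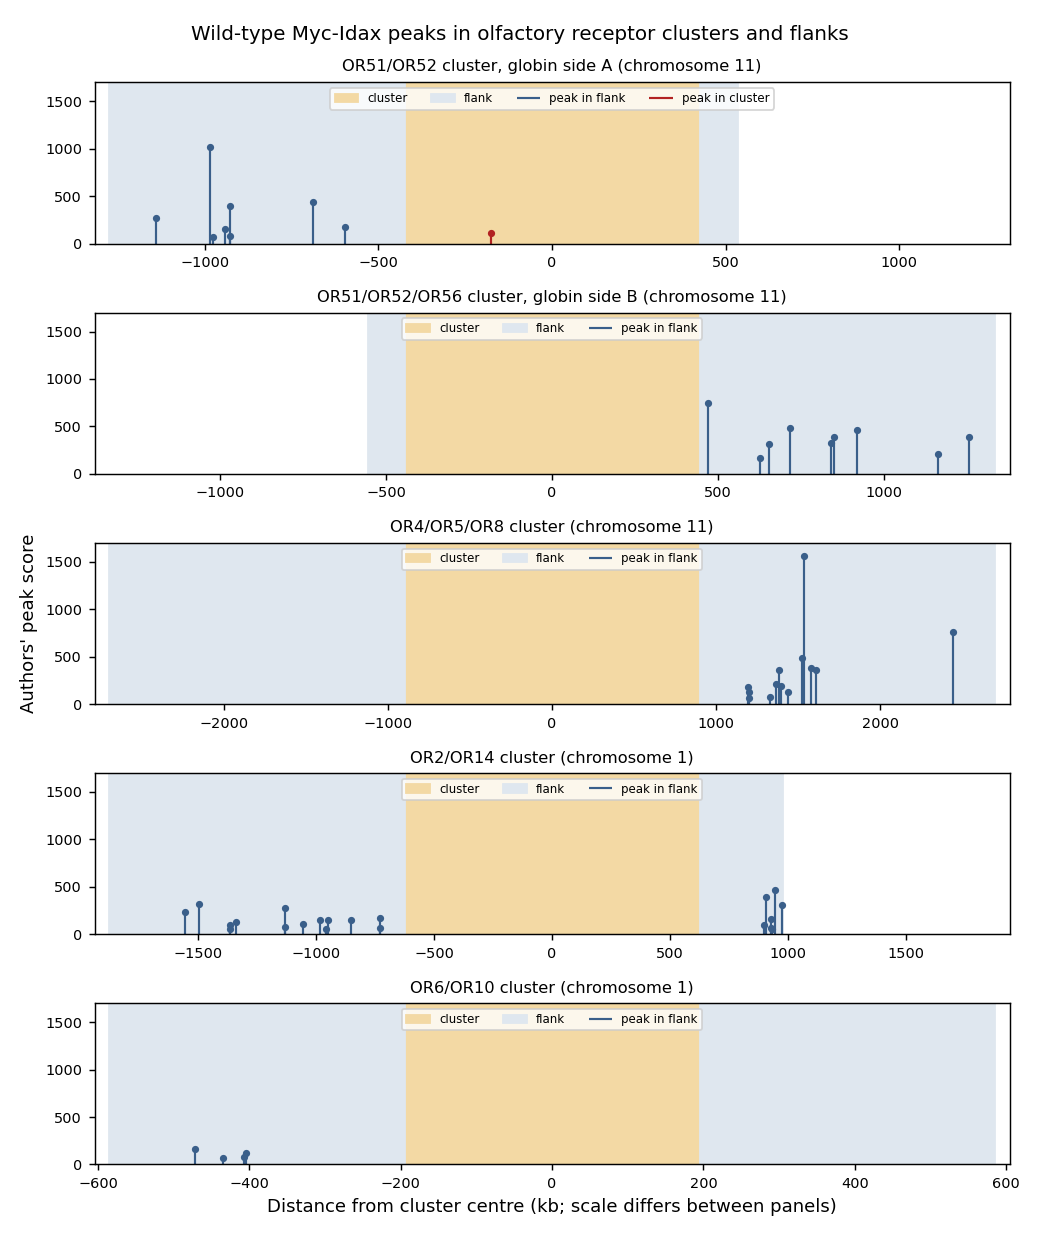
Authors' peak score (vertical axis) of each wild-type peak by its distance from the cluster centre in kb (horizontal axis, scale differing between panels), for the 5 clusters (orange) and their flanks (grey-blue). White areas belong to the neighbouring cluster or lie beyond the flank, and the single red peak, of score 115.17, is the only one in an orange area.

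Peaks began some way outside the clusters. Within 100 kb of an edge the flanks held 1 peak in 0.9 Mb (1.11 per Mb), which lay 25.41 kb after the OR51/OR52/OR56 cluster at 6255409 to 6256799 and scored 744.25. From 100 to 200 kb there were 4 peaks in 0.81 Mb (4.94 per Mb), and from 200 to 300 kb 11 in 0.8 Mb (13.8 per Mb). The density did not stay high farther out, though the fall was not steady. It was 15.1 per Mb from 300 to 400 kb, 14 from 400 to 500 kb and 16 from 500 to 600 kb. It was 6 from 600 to 700 kb, 12 from 700 to 800 kb, 4.55 from 800 to 900 kb and 3.33 from 900 to 1000 kb. From 1500 to 1600 kb it was 5, from 1 peak in 0.2 Mb. No peak lay from 1000 to 1500 kb, where each step of 100 kb had at most 0.3 Mb of flank. The nearest outside peak was 104 kb before and 269.9 kb after the OR2/OR14 cluster, 170.6 kb before the OR51/OR52 cluster and 208.8 kb before the OR6/OR10 cluster. The profile by distance was drawn up after the peaks had been seen, and the edges of the clusters are round numbers, not gene boundaries.

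The mutant list had 0 peaks in the clusters and 0 in their flanks. It held 1 peak per 78.8 Mb, and at that density 0.0657 peaks would lie in the clusters, so a lack of mutant peaks could not be told from the sparseness of the list. The nearest mutant peak to any cluster was on chromosome 11 at 1212795 to 1213075 (score 55.31), 3.17 Mb before the OR51/OR52 cluster. The strongest mutant peak, at 64863383 to 64863716 on the same chromosome (score 94.45), was the nearest to the OR4/OR5/OR8 cluster at 8.06 Mb. On chromosome 1, which had 5 mutant peaks, the nearest lay 15.5 Mb before the OR6/OR10 cluster and 105 Mb before the OR2/OR14 cluster.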

How the data were processed

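Chromatin of stable HEK293T lines was immunoprecipitated with an anti-c-Myc gel and sequenced. Per the submitters' processing notes, Bowtie 0.12.7, MACS 1.4.1 and hg19 were used. The sources used here do not say how replicates were pooled. Each deposited list had 5 columns without a header, and the score in the last is the authors' own value per peak, of unstated scale, used within a list only. Peak starts were converted to 1-based positions.

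Members shared at least 1 bp with a cluster. The clusters, lists and groups of genes were chosen with earlier results of these data known. Every cluster peak, the peak-free stretch around each cluster and the nearest peaks outside its edges are named, with promoters picked by number of CG pairs. Densities have exact Poisson and shares exact Clopper-Pearson intervals (95%). Promoters came from RefSeq, GRCh38.p14. Unassembled sequence, and sequence where reads cannot be placed uniquely, was not masked. Counting was tested on simulated lists, and 20 of 20 gave the planted numbers of peaks. Alternatives were a minimum score, merged peaks, peak centres, other edges, flanks and windows, and leaving out each cluster. Calculations used pandas 2.3.3 and SciPy 1.17.1 under Python 3.11.15, with numpy 2.4.6, and figures matplotlib 3.10.9.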

Additional observations from a re-analysis of the deposited data

How the results depend on the processing

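No paired analysis was possible because the columns of the lists carry no replicate numbers, and with 1 list per line no replicate could be left out. The count of 1 cluster peak was the same at a minimum score of 100, with peaks within 1 kb merged, by peak centre, and with clusters shortened by 50 kb at each edge. None of these settings could have changed it, so they say little about its stability. The peak scored 115.17 and lay 249 kb from the start and 600 kb from the end of its cluster. Its nearest neighbour was 419.5 kb away. The density of the flanks relative to the clusters ran from 21.4 times (without the OR2/OR14 cluster) to 47.2 times (without the flank on the centromere side, chosen after seeing the data) over 12 settings. Both lie within the interval of the 36.4 reported, which is wide because it rests on 1 cluster peak. Without the OR51/OR52 cluster, which holds that peak, the clusters had 0 peaks in 4.33 Mb and no ratio could be computed. The flanks then had 6.73 per Mb, which is 9.72 times the 0.693 per Mb that a count of 0 allows by the limit of 3 counts. An exact Poisson interval would reach higher and make this factor smaller. Windows of 50 and 200 kb held a peak in 0.99% and 4.17% of cases in the clusters, against 20.1% and 46% over all. Read depth is unknown, so sites too weak to be called cannot be told from sites without binding.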
